A study of Mus musculus with 4 samples.

Results

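The complement genes *C1ra*, *C4b*, *Masp1*, *C3*, *Cfb*, *Cfd*, *Serping1*, *Cd55* and *Cd59a* were followed in mouse tail tip fibroblasts (TTFs), cells grown out of the connective tissue of the tail. They were chosen by name and found by their symbols, and all 9 are among the 23924 genes of the FPKM matrix (counted fragments per kilobase, relative to the library's total). The study asked how expression of *Xist* from an autosome affects other genes. Transgenic (TG) cells came from male Tg2087/+ mice on the C57BL/6J background, which carry the TgBAC8 construct, a stretch of the X-inactivation center with *Xist* under its native promoter in an autosome. Wildtype (WT) cells came from their male +/+ littermates. Both genotypes were immortalized with SV40 large T and are tetraploid, so the WT controls share that treatment and ploidy. Ages were not given. Polyadenylated RNA was read in 2 WT and 2 TG libraries, and whether those of a genotype came from separate animals or cultures was not stated, so p-values measure only the spread between these libraries.

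Complement is a set of plasma and membrane proteins that marks targets for removal and can perforate membranes. The classical pathway starts with the proteases C1r and C1s, and the lectin pathway with the MASP proteases. Both cleave C4 and lead to cleavage of C3, while factor B and factor D amplify C3 cleavage in the alternative pathway. C1 inhibitor, CD55 and CD59 hold these steps in check, and fibroblasts of many tissues are known to make several of these proteins, more so under interferon or inflammatory signals.

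The label "complement genes of fibroblasts" held for few of these genes in the cells measured. *Masp1* was the only one of the 9 above 3 FPKM in any library. *Cd59a*, *C1ra* and *Cfb* lay between 0.163 and 2.42 FPKM, *Serping1* and *C3* were detected by 7 reads and 3 reads in all, and *C4b*, *Cfd* and *Cd55* were listed at 0 in the 4 libraries. By limma on FPKM none of the 9 was called different between TG and WT, while voom on reads called *Masp1* at the same thresholds. *Masp1* was at 25.7 ± 5.29 FPKM in TG against 11.8 ± 2.80 in WT (SD, n = 2).

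The reads behind the FPKM were worked out from the whole-number ratios between libraries and from gene lengths, which gave totals of 9465712 to 14639946 reads a library, with the deepest at 1.55 times the shallowest. Across tested genes Pearson's r was 0.978 within WT, 0.976 within TG and 0.957 to 0.959 across genotypes, so no library stood apart. *Xist*, the check of the labels, was at 0 and 0.108 FPKM in WT and at 2.31 and 2.28 in TG. Its log2 fold change by limma was 2.34 with an adjusted p of 0.0112, which missed the threshold of 0.01. By voom on reads the adjusted p of *Xist* was 3.9e-04. Of the fibroblast markers, *Col1a1* was at 867 and 789 FPKM in WT and at 407 and 539 in TG (limma adjusted p = 0.0491), *Pdgfrb* at 56.8 and 57.3 in WT and at 31.7 and 26.8 in TG (adjusted p = 0.0165) and *Vim* at 2147 to 2547, while *Lum* was at 0 in the 4 libraries, *Fap* reached 0.0802 at most and *Dcn* 0.879. Of the 8 fibroblast markers tested 6 had a negative log2 fold change, among them *S100a4* at -0.0025, and 2 a positive one. The median of the 8 was -0.33. The 2 were *Vim* at 0.15 and *Pdgfra* at 1.08 (limma adjusted p = 0.218). *Pdgfra* was at 0.0999 and 0.307 FPKM in WT and at 0.823 and 1.13 in TG, and was tested only through its TG libraries. The list's summed FPKM was 5596 to 6007 in WT and 5192 to 5642 in TG, with overlapping genotypes. The part of these marker differences in the levels of the complement genes was not tested. The defining macrophage markers *Ptprc*, *Adgre1* and *Tyrobp* and the adipocyte markers *Adipoq*, *Plin1* and *Cidec* were at 0 in the 4 libraries, while the 7 adipocyte markers together summed to 1.76 to 5.07 FPKM, most of it *Fabp4*. *Pparg* of that list reached 0.887 FPKM. Of the other listed macrophage markers, *Cd68* was at 5.12 to 12.1 FPKM and *Cd14* at 3.25 to 4.96.

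Several of these genes have close relatives, and short reads from a stretch that both share cannot be assigned to 1 of them. The coding sequences of *C4b* and its neighbour *C4a* were identical at 5003 of 5204 aligned bases (96.1%), and those of *C1ra* and its duplicate *C1rb* at 2076 of 2118 (98.0%). The 90-base windows below are those with the most differences in these pairs, 14 for *C4b* and *C4a* and 13 for *C1ra* and *C1rb*. They are shown because reads from such places can tell the relatives apart. Each is written 5′ to 3′ on the transcribed strand, from the GENCODE vM21 annotation of GRCm38, and capitals mark the bases that differ within a pair. The *C4b* window lies in exon 21 at chr17:34735430-34735519 (minus strand), the *C4a* window in exon 21 at chr17:34816086-34816175 (minus strand), the *C1ra* window in exon 11 at chr6:124522647-124522736 (plus strand) and the *C1rb* window in exon 11 at chr6:124580693-124580782 (plus strand).
C4b: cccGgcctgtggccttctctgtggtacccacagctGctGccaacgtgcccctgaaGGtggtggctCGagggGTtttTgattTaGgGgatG
C4a: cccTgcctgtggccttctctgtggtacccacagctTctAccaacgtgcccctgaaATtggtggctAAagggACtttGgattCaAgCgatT
C1ra: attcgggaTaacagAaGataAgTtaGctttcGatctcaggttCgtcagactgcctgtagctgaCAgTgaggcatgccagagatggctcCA
C1rb: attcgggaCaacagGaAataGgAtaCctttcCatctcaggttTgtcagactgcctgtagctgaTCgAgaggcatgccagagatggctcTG

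Over whole transcripts, 50-base windows gave the share of each gene that another annotated gene repeats. It was 0.321% for *Masp1*, 3.98% for *Cd59a* and 0% for *C3*, *Cfd* and *Serping1*, so nearly all of these transcripts can be read without ambiguity. It was 15.5% for *Cd55*, mostly with *Cd55b*, 35.2% for *C4b*, all with *C4a*, and 50.8% for *C1ra*, mostly with *C1rb*. It was 81.4% for *Cfb*, all with the overlapping gene *Gm20547*. How the authors' counting treated reads that match several genes was not stated. The housekeeping gene *Gapdh*, which shares 82.5% of its windows with other annotated genes, was at 9.96 and 10.8 FPKM in WT and at 20.1 and 18.5 in TG (log2 fold change 0.86, limma adjusted p = 0.0352), while *Actb*, with 14.2% shared, was at 6179 to 6507 FPKM. *Pgk1*, with 68% shared, was at 4.10 and 5.42 FPKM in WT and at 7.11 and 7.28 in TG. Its log2 fold change was 0.56 (limma adjusted p = 0.227). *Ppia* was at 18.1 and 11.8 FPKM in WT and at 26.3 and 17.1 in TG, with overlapping genotypes. Its log2 fold change was 0.52 (limma adjusted p = 0.309). The part of these housekeeping gene differences in those of *Cfb* or *C1ra* was not tested. Levels of *Cfb* and *C1ra* are therefore uncertain. *C4b* has 3455 windows of its own, 64.8% of the transcript, and was listed at 0. The part of shared reads in that value was not tested.

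**Figure D1:**
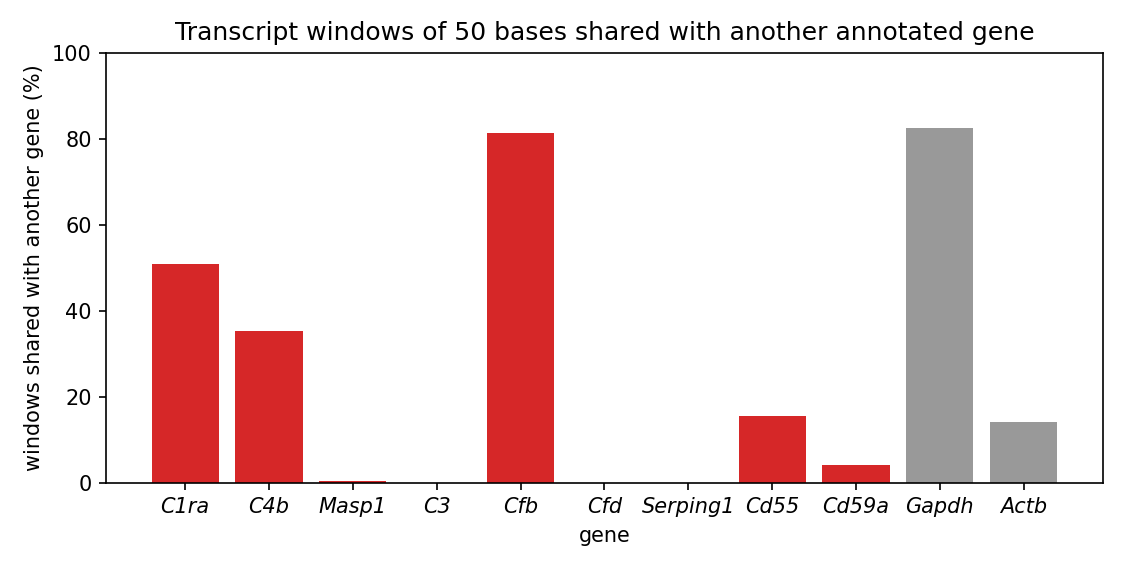
Percent of 50-base windows of the longest coding transcript (y axis) that also occur in another annotated gene, for the 9 complement genes (red bars) and *Gapdh* and *Actb* (grey bars). *Cfb* at 81.4% stands beside *Gapdh* at 82.5%, and *Masp1*, *Cd59a*, *C3*, *Cfd* and *Serping1* are at or below 3.98%.

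Set in order of their mean FPKM, a scale per gene length, the genes ran *Masp1*, *Cd59a*, *C1ra*, *Cfb*, *Serping1* and *C3*, with the other 3 at 0. *Masp1* stood apart, since its lowest library was above the highest of *Cd59a* and its mean was 12.9 times as high. The ranges over the libraries overlapped for every later pair of neighbours in this order. *C1ra* was nonetheless above *Cfb* in each of the 4 libraries, and *Cfb* above *Serping1* in each. The places of *C1ra* and *Cfb* are uncertain, as are sums that include them. Other genes share 50.8% and 81.4% of their windows, and the treatment of such reads was not stated. *Masp1* made up 82.3% to 87.8% of the summed FPKM of the 9 genes, which was 11.2 and 16.8 in WT and 33.6 and 26.2 in TG.

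**Figure D2:**
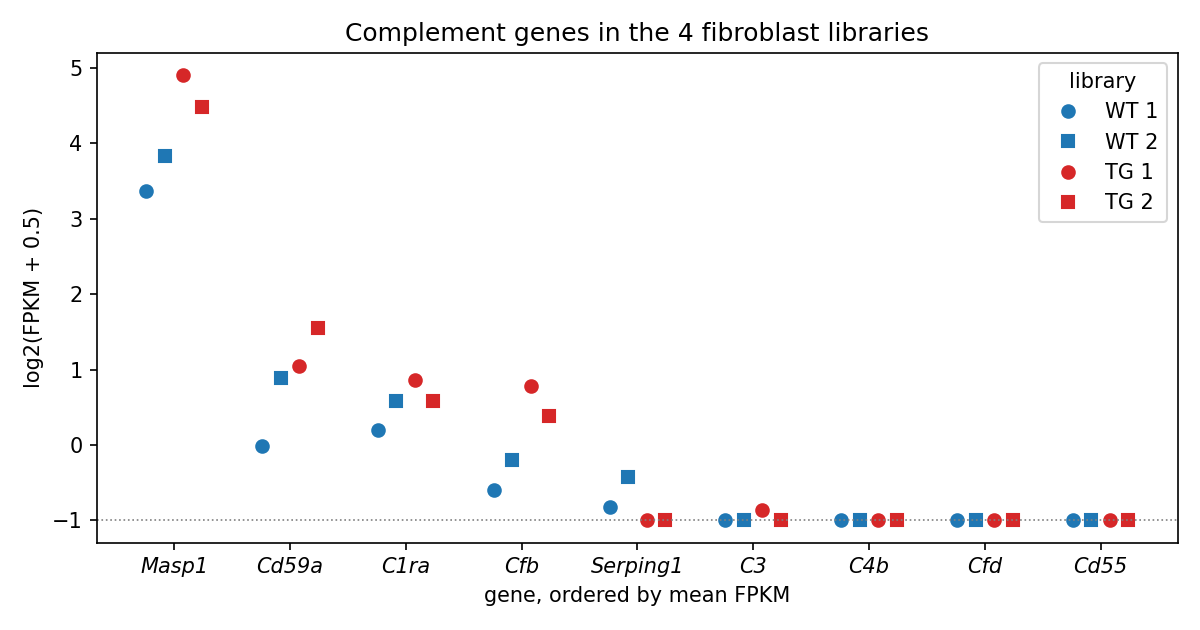
Level of each complement gene as log2(FPKM + 0.5) (y axis) in each library (blue, WT; red, TG; circles, replicate 1; squares, replicate 2), with genes ordered by mean FPKM. The dotted line is the value of a gene listed at 0, where the 4 libraries of *C4b*, *Cfd* and *Cd55* lie, and *Masp1* lies above every other gene in each library.

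TG was compared with WT by limma on log2(FPKM + 0.5) over the 11524 genes with a mean of at least 0.5 FPKM, and a gene was called at a Benjamini-Hochberg adjusted p under 0.01 with a log2 fold change of 1 or more in either direction. Of the 9 complement genes 4 passed the filter on low values and were tested: *Masp1*, *Cd59a*, *C1ra* and *Cfb*. By limma 0 were called higher, where 0.607% of all tested genes were, and 0 lower, where 0.469% were. A gene left uncalled can still differ, since this fit did not call *Xist* either. At an unadjusted p under 0.05, which 19.6% of all tested genes reached, there were 2 of the 4, *Masp1* and *Cfb*, both higher in TG. *Cfb* passed the filter only through its TG libraries, so its p is no support. With the adjusted p relaxed to 0.05 and the same fold limit, *Masp1* alone was called higher and none lower (background 1.99% higher and 1.05% lower), and the same held with no fold limit (2.59% and 1.54%). The voom method of limma, run on reads at the first thresholds also called *Masp1* alone, higher in TG (background 1.06% higher and 1.28% lower). The log2 fold changes of the 4 had a median of 0.92 against 0.07 over all genes tested, and in each of the 4 both TG libraries were above both WT libraries, as in 30.2% of all tested genes. With *Cfb* among them, this count and this median are a description and carry no test.

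**Figure D3:**
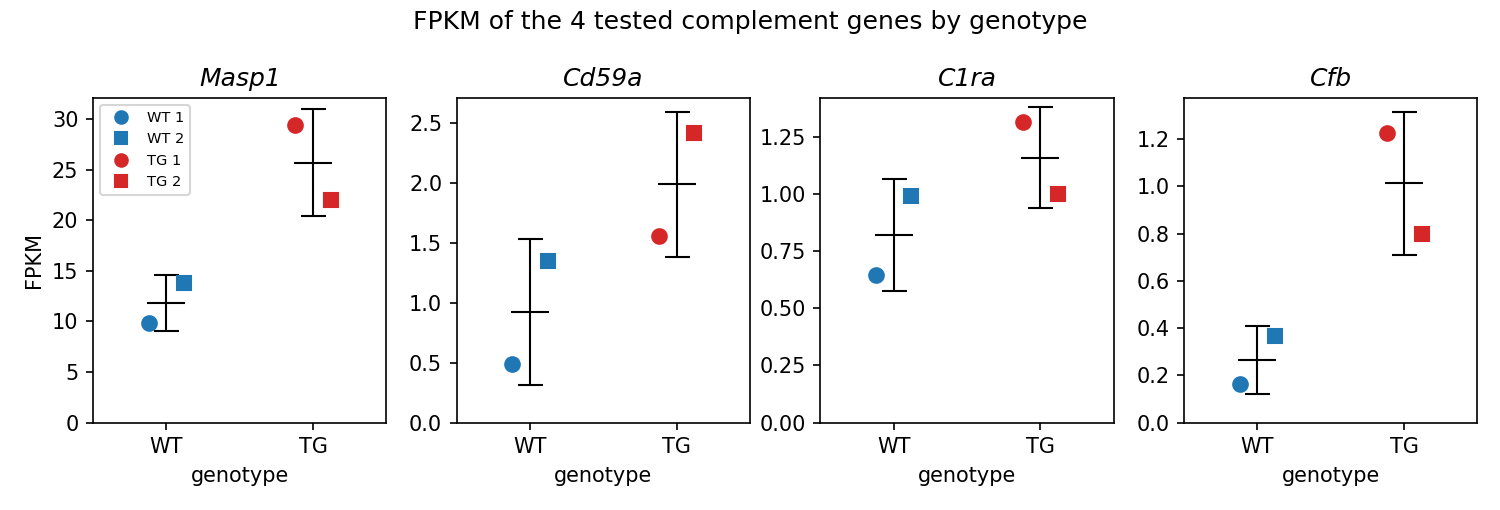
FPKM (y axis, from 0 and on its own scale in each panel) of the 4 tested complement genes in WT (blue) and TG (red), with circles for replicate 1, squares for replicate 2 and black bars for the mean and SD of 2 libraries. Both TG points lie above both WT points in each panel, by 1.003 against 0.993 FPKM at the closest in *C1ra*.

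*Masp1* (chr16:23451785-23521240) encodes the lectin pathway protease that activates MASP-2, and alternative transcripts of the same gene encode MASP-3 and a non-catalytic inhibitor. The matrix gives 1 value per gene, so these products cannot be told apart. *Masp1* was at 9.84 and 13.8 FPKM in the WT libraries and at 29.4 and 22.0 in the TG libraries, from 484, 1050, 1825 and 1263 reads. Both TG libraries were above both WT libraries, and the smallest gap between genotypes was larger than the gap between replicates of either one. The log2 fold change was 1.09 (SE 0.23, 95% confidence interval 0.58 to 1.61), with an unadjusted p of 7.1e-04 and an adjusted p of 0.0277 by limma. By voom on reads it was 1.04 (SE 0.21, adjusted p = 0.00135). Over the 13 settings tried the log2 fold change lay between 0.86 and 1.33, with adjusted p-values of 0.00135 to 0.1445, of which 7 were under 0.05. *Masp1* ranked 3996th by mean FPKM among the 15530 genes above 0. In bulk RNA, more cells that express a gene and more RNA per cell cannot be told apart.

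*C1ra* (chr6:124512621-124523440) encodes C1r, the protease of the classical pathway that cleaves C1s. It was at 0.647 and 0.993 FPKM in WT and at 1.32 and 1.003 in TG, from 16, 38, 41 and 29 reads. WT 2 and TG 2 were nearly equal, and the difference between genotypes was not larger than the spread between replicates. The log2 fold change was 0.34 (SE 0.38, 95% confidence interval -0.52 to 1.19, limma adjusted p = 0.687), so a rise of more than 2-fold and a small fall both lie within the interval. Its duplicate *C1rb* was at 0, 0.102, 0.0416 and 0.0896 FPKM in WT 1, WT 2, TG 1 and TG 2.

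*C4b* (chr17:34728139-34743902) encodes C4, which the classical and lectin proteases cleave. It was listed at 0 in the 4 libraries. At these depths a count of 0 allows up to 3 reads, or 0.0392 to 0.0606 FPKM depending on the library. *C4a* was at 0 in WT 1 and TG 2, at 0.0524 FPKM in WT 2 from 4 reads and at 0.0482 in TG 1 from 3 reads. RNA of either gene was thus at or near the limit of detection in both genotypes, apart from reads that match both.

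*C3* (chr17:57203967-57228136) encodes the protein on which the 3 pathways converge. It was at 0 in WT 1, WT 2 and TG 2 and at 0.0504 FPKM in TG 1, which the gene's length puts at 3 reads (exact 95% Poisson interval 0.619 to 8.77 reads). The upper limits for the libraries at 0 were 0.0635, 0.0411 and 0.0543 FPKM, so the value in TG 1 lies among them and no difference was detectable. *C3* shares no window with another annotated gene, and the part of multiply matching reads in its level was not tested.

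*Cfb* (chr17:34856374-34862514) encodes factor B, the catalytic part of the alternative pathway convertase. It was at 0.163 and 0.368 FPKM in WT and at 1.23 and 0.800 in TG. These values came from 4 reads (exact 95% Poisson interval 1.09 to 10.2), 14 (7.65 to 23.5), 38 (26.9 to 52.2) and 23 (14.6 to 34.5). Both TG libraries were above both WT libraries, and the TG mean was 3.82 times the WT mean. The log2 fold change on the log2(FPKM + 0.5) scale, which understates changes at such levels, was 0.98 (SE 0.44, 95% confidence interval 0.0040 to 1.96, limma unadjusted p = 0.0492, adjusted p = 0.253). With voom on reads it was 1.80 (SE 0.91, adjusted p = 0.264), and with a pseudocount of 0.1 it was 1.64. The difference therefore did not pass the correction over all genes in any of these fits. *Cfd* (chr10:79890853-79892655) encodes factor D, which cleaves factor B and which adipocytes are known to make. It was at 0 in the 4 libraries, with upper limits of 0.265 to 0.410 FPKM, the widest of the 9 genes because its transcript is the shortest.

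*Serping1* (chr2:84765360-84775444) encodes C1 inhibitor, which inactivates C1r, C1s and the MASP proteases. It was at 0.0632 FPKM in WT 1 from 1 read and at 0.245 in WT 2 from 6 reads, and at 0 in both TG libraries, with upper limits of 0.151 and 0.162 FPKM. It was below the filter and was not tested. The upper limit of each TG library lies above WT 1 and below WT 2, so single libraries do not settle whether the genotypes differ. Pooled by genotype, there were 7 reads in WT and 0 in TG. With the WT count taken as it stands, the limit for a count of 0 puts TG at least 2.2-fold lower. That value leaves out the spread between replicates, and 6 of the reads came from WT 2. *Serping1* was the only detected gene of the 9 whose TG libraries were both below its WT libraries.

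*Cd55* (chr1:130429798-130465009) encodes decay-accelerating factor, which takes apart the C3 convertases at the cell surface. It was at 0 in the 4 libraries with upper limits of 0.0860 to 0.133 FPKM, and its relative *Cd55b* was also at 0. *Cd59a* (chr2:104095753-104115410) encodes the membrane protein that blocks assembly of the membrane attack complex. It was at 0.492 and 1.35 FPKM in WT and at 1.56 and 2.42 in TG, from 8, 34, 32 and 46 reads. Both TG libraries were above both WT libraries, but WT 1 was farther below WT 2 than WT 2 was below TG 1. The log2 fold change was 0.86 (SE 0.41, 95% confidence interval -0.046 to 1.76, limma adjusted p = 0.279) and fell to 0.41 without WT replicate 1. *Cd59b* was at 0 in WT 1 and TG 1, at 0.245 FPKM in WT 2 and at 0.649 in TG 2.

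**Figure D4:**
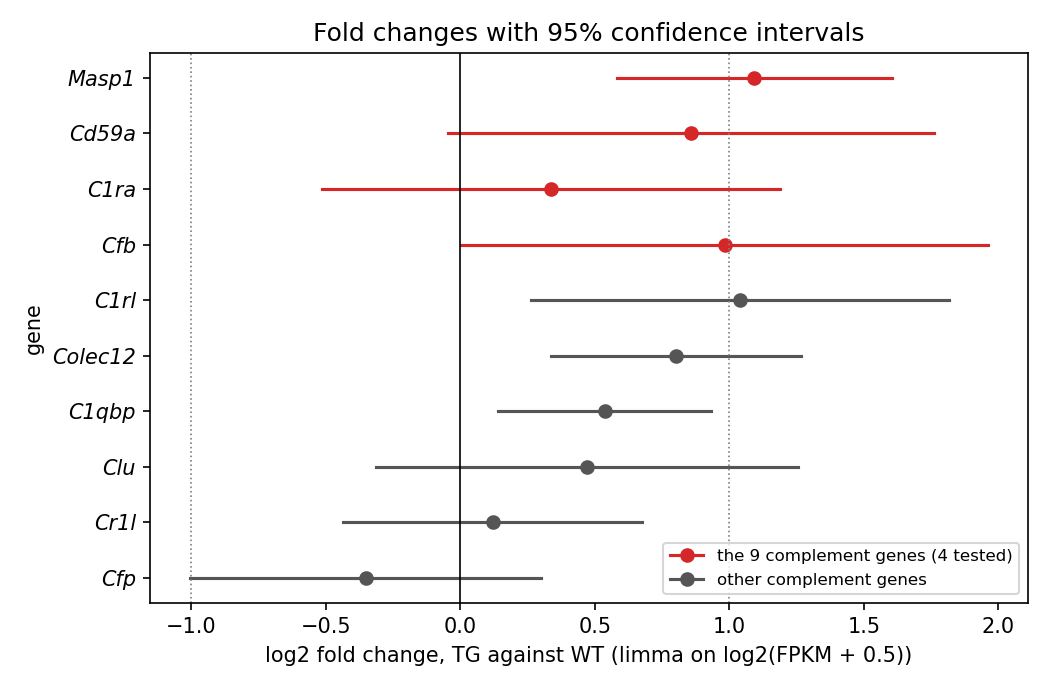
Log2 fold change of TG against WT (x axis) with its 95% confidence interval for the 4 tested complement genes (red) and the 6 tested genes among the other complement genes (grey). The solid line is no change and the dotted lines are the fold limits of the call. The intervals of *Masp1*, *Cfb*, *C1rl*, *Colec12* and *C1qbp* lie above 0 before adjustment over all genes, and *Cfb* passed the filter only through its TG libraries.

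The rest of the pathway was read from the same fit for a list of 51 other complement genes, of which 50 are in the matrix. Of these 25 were at 0 in the 4 libraries, 25 were above 0 in at least 1 and 6 were tested. Limma called 0 in either direction, where 0.607% of all tested genes were called higher and 0.469% lower. It also called 0 at an adjusted p under 0.05 with the fold limit (background 1.99% and 1.05%), and voom called 0 (background 1.06% and 1.28%). At such shares a count of 0 of 6 is no result about the list. At an unadjusted p under 0.05 there were 3 of the 6, all higher in TG, *C1rl*, *Colec12* and *C1qbp*, against 19.6% of all tested genes. The median log2 fold change of the 6 was 0.50, against 0.07 over all genes tested.

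Among the starters of the classical pathway, *C1qa*, *C1qb* and *C1qc*, which encode the recognition subunits, were at 0 throughout, and so was *C2*. *C1s1*, the partner protease of *C1ra*, was at 0.261 and 0.313 FPKM in WT, at 0.148 in TG 1 and at 0 in TG 2. *C1rl*, which encodes a C1r-like protease, was at 0.628 and 0.764 FPKM in WT and at 2.05 and 1.86 in TG. Its log2 fold change was 1.04 (SE 0.35, limma adjusted p = 0.135). The TG libraries were well above its WT libraries, though the difference did not pass the correction. *Colec12*, a scavenger receptor with a collectin-type lectin domain, was at 7.12 and 8.80 FPKM in WT and at 14.4 and 14.0 in TG. Its log2 fold change was 0.80 (SE 0.21, limma adjusted p = 0.061). With *Masp1* it was the other lectin pathway gene of either list above 1 FPKM, and the recognition proteins *Mbl1*, *Mbl2*, *Fcna* and *Fcnb* were at 0 throughout. The collectin *Colec10* had 0 reads in both WT libraries, 12 in TG 1 and 3 in TG 2. *Colec11* had 2, 0, 0 and 6 reads in WT 1, WT 2, TG 1 and TG 2. Both collectins were below the filter and were not tested.

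*Cfp*, which encodes properdin, the stabilizer of the alternative pathway convertase, was at 4.12 and 2.71 FPKM in WT and at 2.37 and 2.68 in TG. Both TG libraries were below both WT libraries, as in 20.3% of all tested genes, with a log2 fold change of -0.35 (SE 0.29, limma adjusted p = 0.569). It was -0.089 without WT replicate 1 and -0.61 without WT replicate 2. None of the 7 terminal pathway genes was tested, and 5 of them, with *Hc*, which encodes C5, were at 0 throughout. *Cfi*, which encodes the protease that inactivates C3b and C4b, was at 0 as well. *Clu*, which encodes clusterin, an inhibitor of the terminal complex, was at 1.33, 2.34, 2.02 and 3.48 FPKM in WT 1, WT 2, TG 1 and TG 2 with overlapping genotypes (log2 fold change 0.47, SE 0.35, limma adjusted p = 0.520). The value was 0.14 without TG replicate 2 and 0.80 without TG replicate 1.

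*Cr1l*, which encodes Crry, the membrane regulator of C3 convertases in mice, was at 6.20 and 6.24 FPKM in WT and at 8.38 and 5.51 in TG. It was the highest membrane regulator of either list, and its genotypes overlapped (log2 fold change 0.12, 95% confidence interval -0.44 to 0.68, limma adjusted p = 0.845). Without TG replicate 1 its log2 fold change was -0.16. *C1qbp*, a mostly mitochondrial protein named for binding C1q, was at 154 and 130 FPKM in WT and at 217 and 195 in TG. It was the only gene of either list above 100 FPKM, and its log2 fold change was 0.54 (SE 0.18, limma adjusted p = 0.131).

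**Figure D5:**
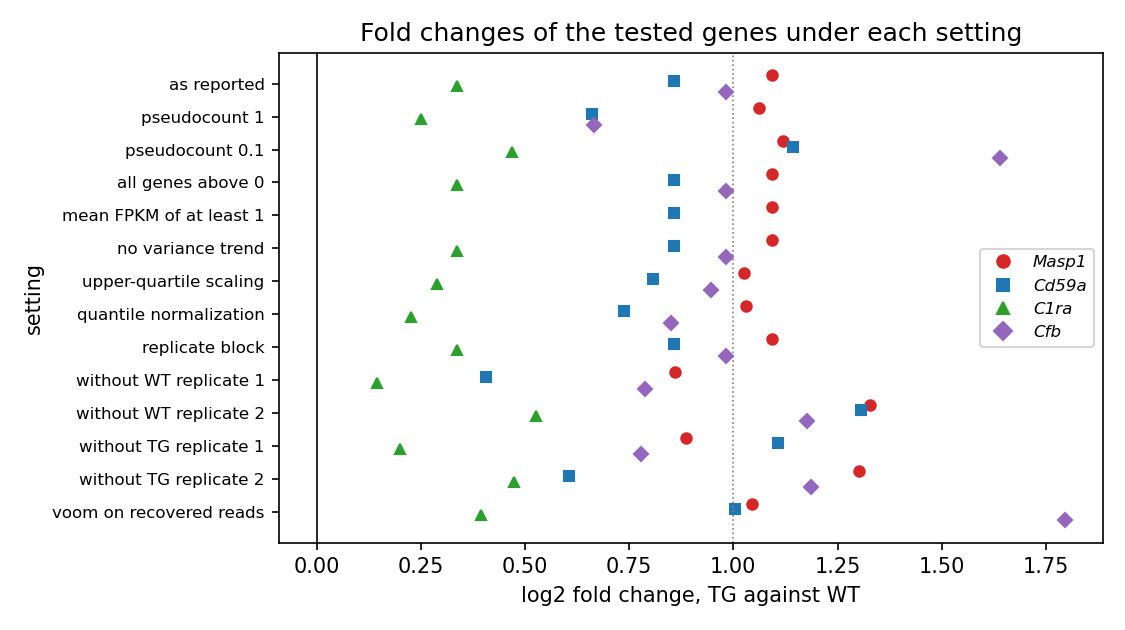
Log2 fold change of TG against WT (x axis) for the 4 tested complement genes under the reported fit and each other setting (y axis), with the solid line at no change and the dotted line at the fold limit of the call. Every point lies above 0, and *Masp1* stays between 0.86 and 1.33. *Cfb* and *C1ra* have no point at a mean of at least 1 FPKM, which they did not reach.

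Complement genes are known targets of interferon and of NF-kB and C/EBP factors, so lists of genes that answer these signals were read from the same fit. Of 26 interferon-stimulated genes 16 were tested, and limma called 0 in either direction (0.607% higher and 0.469% lower of all tested genes). It also called 0 at an adjusted p under 0.05 with the fold limit (background 1.99% and 1.05%), and voom called 0 (background 1.06% and 1.28%). At such shares a count of 0 of 16 is no result about the list. At an unadjusted p under 0.05, which 19.6% of all tested genes reached, there were 4. *Ifit1*, *Psmb8* and *Usp18* were higher in TG and *Irf1* was lower. *Psmb8* and *Usp18* passed the filter only through their TG libraries, so their p is no support. Of 22 NF-kB and acute phase genes 17 were tested, 3 were called higher and 0 lower (0.607% and 0.469% of all tested genes), and voom called 2 higher (1.06% of all). The 3 were *Cxcl1*, which encodes a neutrophil chemokine (2.51 and 1.79 FPKM in WT, 7.76 and 8.02 in TG, limma adjusted p = 0.00665), the related *Cxcl5* (3.15 and 4.49 in WT, 12.6 and 10.6 in TG, adjusted p = 0.00902) and *Cebpb*, which encodes a C/EBP factor (8.95 and 8.03 in WT, 24.2 and 20.8 in TG, adjusted p = 0.00561). They were named after their values were seen. The acute phase genes *Saa3*, *Lcn2* and *Hp* were at 0 in the 4 libraries. Any part of these differences in the levels of *Masp1* or *Cfb* was not tested.

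Promoter windows of 300 bases across the RefSeq start on GRCm38 were read for 5 of the 9 genes, all but *C4b*, *Masp1*, *Cfb* and *Serping1*. They were searched on both strands. The C/EBP type motif TTGCNNAA was found in *C3* and *C1ra* and in 10.8% of all 32851 promoters. The STAT type motif TTCNNNGAA was found in *C1ra* (8.30% of all), and the interferon-stimulated response element type motif in *Cd59a* (3.44% of all). The loosely defined NF-kB type motif was found in *C3*, *Cfd*, *Cd55* and *Cd59a*, but also in 50.8% of all promoters. These matches are descriptions of sequence, and 3 of the 5 promoters belong to genes at or near 0 FPKM here.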

How the data were processed

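RNA-seq of 2 WT and 2 TG libraries was analysed. Per the labels and the methods, the authors used Rsubread for alignment to mm10, obtained counts per gene with featureCounts, converted these to FPKM in R and ran DESeq. The deposited matrix holds FPKM in 1 column per library, and annotation, strand setting and versions were not given in the sources used here. TG was compared with WT by limma 3.58.1 (lmFit, and eBayes with a variance trend) in R 4.3.3 on log2(FPKM + 0.5) for genes with a mean of at least 0.5 FPKM, with Benjamini-Hochberg adjustment and the study's thresholds.

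Whole reads were recovered from ratios of FPKM between libraries and GENCODE vM21 exon lengths, and 98.1% to 98.2% of the library totals were recovered on genes. Reads served voom, Poisson intervals and limits (3 reads for a count of 0), which cover counting error only. Both tests were tested on simulated data with 200 changed genes. Shared windows and coding alignments used GENCODE vM21 transcripts, and promoters came from RefSeq.

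The complement genes and lists were chosen with earlier results of these data known. Genes named are the 9, the other complement genes at a mean of at least 0.5 FPKM, their close relatives, *Xist*, cell type markers and the 5 genes most like *C3*. Any other gene was named after its values were seen. Alternatives were the pseudocount, the filter, the variance trend, the scaling, a block for the replicate number, leaving out each library, voom and the call threshold.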

Additional observations from a re-analysis of the deposited data

How the results depend on the processing

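No member of the 9 complement genes was called higher in TG by the reported fit (0), and 1, *Masp1*, was called by voom on recovered reads, 1 at an adjusted p under 0.05 with the fold limit and 1 at an adjusted p under 0.05 with no fold limit. No setting called one lower. The 4 tested genes kept a positive log2 fold change under each setting that tested them. Over the fits that leave out 1 library, in which the lone library of an arm is assumed to vary like the others, 0 were called, and the log2 fold change ranged from 0.86 to 1.33 for *Masp1*, 0.41 to 1.31 for *Cd59a*, 0.15 to 0.53 for *C1ra* and 0.78 to 1.19 for *Cfb*. The adjusted p of *Masp1* was 0.1445 without WT replicate 1, 0.110 without WT replicate 2, 0.142 without TG replicate 1 and 0.0279 without TG replicate 2. The value of *Cr1l* ranged from -0.16 without TG replicate 1 to 0.40 without TG replicate 2, and no other fold change reversed. With the replicate number as a block, 0 of the 9 were called and the value of *Masp1* was 1.09 with an adjusted p of 0.0953, and 12 genes in all were called higher and 8 lower. The deviations of same-numbered libraries correlated at -0.028 across 11524 genes. This value cannot show whether same-numbered libraries shared a culture or a preparation, which was not stated.

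Over all genes the reported fit called 70 higher and 54 lower. It called 47 and 55 with quantile normalization, 0 and 1 with all genes above 0, 3 and 6 with no variance trend, 122 and 148 by voom, and between 0 and 66 higher and 1 and 47 lower with a library left out. The cause of these shifts was not tested. A count of 0 in *C4b*, *C3*, *Cfd*, *Cd55* or *Serping1* leaves room for levels up to the stated limits.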

Other observations

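The genes whose centred log2(FPKM + 0.5) over the 4 libraries lay nearest to that of *C3* were *Csnk2b*, *G3bp1*, *Ybx1*, *Sqle* and *Krr1*, at Euclidean distances of 0.0145 to 0.0254. The profile of *C3* is nearly flat because it had 3 reads, so these are genes with a slightly higher value in TG 1, such as *Csnk2b* at 96.2, 96.6, 106 and 97.5 FPKM in WT 1, WT 2, TG 1 and TG 2. The genes nearest to *Masp1*, a measure added after its values were seen, were *N4bp3*, *Cfb*, *Dio3*, *Hdgfl3* and *Uchl4*, at distances of 0.111 to 0.145 over 4 libraries. *N4bp3* was at 2.05 and 2.93 FPKM in WT and at 6.92 and 5.48 in TG.

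Markers of other cell types differed in level between lists. The summed FPKM over the list was 0.0360 to 0.567 for 6 endothelial markers, at most 0.156 for 5 keratinocyte markers and at most 0.561 for 4 lymphocyte markers. The 10 macrophage markers summed to 9.68 to 16.4 FPKM, of which *Cd68*, also expressed by other cells, made up 5.12 to 12.1 and *Cd14* 3.25 to 4.96. The 7 adipocyte markers summed to 1.76 to 5.07 FPKM and the 6 cartilage and bone markers to 9.44 to 15.6. The 5 smooth muscle markers summed to 8652 and 8914 FPKM in WT and to 4058 and 4742 in TG, nearly all of it *Acta2*, *Tagln* and *Cnn1*. *Myh11* of that list was at 0 and 0.179 FPKM in WT and at 0.0647 and 0.377 in TG. *Des* was at 0.155 to 0.435 FPKM. Of the cartilage and bone markers, *Sox9* was at 1.90 and 2.44 FPKM in WT and at 7.11 and 9.05 in TG (limma adjusted p = 0.00671), while *Runx2* was at 7.14 and 8.14 in WT and at 4.83 and 5.28 in TG, and *Ibsp* and *Bglap* were at 0. *Acta2* was at 4031 and 4797 FPKM in WT and at 1851 and 1996 in TG (limma adjusted p = 0.0139). The contractile gene *Cnn1* was at 700 and 661 FPKM in WT and at 168 and 232 in TG (limma adjusted p = 0.00114).

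The early inflammatory gene *Cebpd*, which encodes a C/EBP factor, was at 4.204 and 1.91 FPKM in WT and at 9.06 and 7.02 in TG (log2 fold change 1.33, limma adjusted p = 0.0481), which missed the threshold of the call. Of the 17 tested NF-kB and acute phase genes 11 had both TG libraries above both WT libraries, against 30.2% of all tested genes. The median log2 fold change of the 17 was 0.39 against 0.07 over all. The list was chosen with earlier results of these data known, so this count and this median are a description and carry no test.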
